A study of Saccharomyces cerevisiae with 24 samples.

Results

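The snoRNA host genes of budding yeast examined here are the 7 protein-coding genes EFB1 (YAL003W), TEF4 (YKL081W), ASC1 (YMR116C), IMD4 (YML056C), RPL7A (YGL076C), RPL7B (YPL198W) and RPS22B (YLR367W). They were chosen by annotation, as genes with a small nucleolar RNA (snoRNA) inside an intron, and not by a measured value. They are 7 of the 198 genes in which an intron was found in the long-read alignments, and 2 of the 59 genes in the SMIT files of the anchor-away strains. The reference gene table places annotated snoRNAs inside 8 of the 206 introns found. The eighth lies in NOG2, which codes for a GTPase of large-subunit assembly and is set beside the list where its values bear on it.

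A snoRNA guides the chemical modification of ribosomal RNA by base pairing with it. Those of the C/D box class direct ribose methylation and those of the H/ACA class direct the conversion of uridine to pseudouridine. An intronic snoRNA is usually freed after splicing, when the intron lariat is opened and exonucleases trim it from both ends until they meet the assembled ribonucleoprotein. It can also be released by cleavage of the unspliced transcript, in which case no mRNA is made from that molecule. The hosts are mostly genes of translation, so that mRNA for the translation machinery and a guide for ribosomal RNA come from the same transcript.

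Splicing during transcription was measured in RNA taken from chromatin and depleted of poly(A) RNA. Single Molecule Intron Tracking (SMIT) reads the 3′ end of a nascent RNA, which marks the position of RNA polymerase II, together with the splicing state of the intron upstream. Nanopore long reads show the start, the introns and the end of a single molecule. For long reads 2 libraries each of Nab2-AA and Control-AA were made, all after 10 min of rapamycin at 1 ug/ml. In anchor-away (AA) strains rapamycin ties an FRB-tagged protein to the ribosomal protein Rpl13A, which carries FKBP12, and so draws it out of the nucleus. Nab2-AA is MATalpha with NAB2-FRB, which tags a protein that binds poly(A) tails in the nucleus. Control-AA is MATa and lacks that tag. Both carry tor1-1, a deletion of FPR1 and RPL13A-2xFKBP12, and mating type differs with the tag throughout. SMIT followed both strains over 0, 10 and 30 min of rapamycin in a single library for each strain and time. A further SMIT series held KanMX deletions of HTZ1, PUB1, THO2, RTT103, GBP2 and NPL3, each in its own strain, and the wild type, all MATa with his3Δ1, leu2Δ0, met15Δ0 and ura3Δ0, with 2 libraries each. Separate cultures are not named in the labels for libraries of the same group. The p-values thus cover at most counting error and the variation from library to library, which could be technical. With 2 libraries per group that variation is poorly estimated, and a small p-value can rest mostly on the number of reads.

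The long-read files held 32107 and 11485 alignments in Nab2-AA, against 10042 and 14264 in Control-AA, after 405 and 177, against 54 and 121, identical lines were dropped. Between 5.96% and 6.24% of read names per library aligned on both strands, and each alignment was counted on its own strand. Past the 3′ splice site the SMIT libraries held 699678 to 2839057 reads for deletion strains and wild type, and 1263469 to 1640980 for anchor-away strains. NAB2 and the deleted genes were not measured, so the labels could not be checked from them. No long read lay on HMRA1, STE2, STE3, MFA1 or MF(ALPHA)1 in any library, so mating type could not be checked either. Intervals given with shares are exact (Clopper-Pearson) 95% intervals and cover counting error only, and PCR copies of a molecule may have been counted as separate reads.

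The intron positions below are those of alignment gaps on the build sacCer3, and the snoRNA positions come from the gene table of the same assembly. EFB1, the alpha subunit of the exchange factor for translation elongation factor eEF1A, has a 366 nt intron on chromosome I (142254 to 142619, plus strand) with SNR18 from base 114 to 215 of the intron. TEF4, the gamma subunit of the same exchange factor, has a 326 nt intron on chromosome XI (283096 to 283421, plus strand) with SNR38 from base 90 to 184. ASC1, the yeast orthologue of RACK1 on the small ribosomal subunit, has a 273 nt intron on chromosome XIII (499879 to 500151, minus strand) with SNR24 from base 80 to 168. IMD4, an IMP dehydrogenase of guanine nucleotide synthesis, has a 408 nt intron on chromosome XIII (163309 to 163716, minus strand) with SNR54 from base 97 to 182. These 4 snoRNAs belong to the C/D box class, and each host has 1 intron.

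The other hosts code for ribosomal proteins and have 2 introns each, of which the 3′ one holds the snoRNA. In RPL7A the 3′ intron of 468 nt lies on chromosome VII (364965 to 365432, minus strand) and holds the C/D box SNR39 from base 182 to 270. In its paralogue RPL7B the 3′ intron of 407 nt lies on chromosome XVI (173666 to 174072, plus strand) and holds the C/D box SNR59 from base 162 to 239. In RPS22B the 3′ intron of 483 nt lies on chromosome XII (856575 to 857057, plus strand) and holds the H/ACA box SNR44 from base 136 to 346. The 5′ introns hold no snoRNA. They measured 459 nt in RPL7A, 409 nt in RPL7B and 557 nt in RPS22B, and that of RPS22B begins upstream of the coding start. RPL7A and RPL7B code for nearly identical proteins, and how the aligner treated reads that fit both genes is not given in the sources used here.

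The 3′ ends of long reads were examined first, since a snoRNA marks a fixed place inside the intron. Whether such an end marks the polymerase or the end of a processed RNA was not tested. Reads that entered an intron from the upstream exon and ended inside it were collected, a comparison added after it was seen that no read began inside a snoRNA intron. Their number near the annotated 3′ end of the snoRNA differed between hosts. In ASC1, 33 of 51 such ends lay within 10 nt of the last base of SNR24, a window that covers 7.69% of the intron, and the commonest positions, with 9 reads each, were 1 and 2 nt past it. In EFB1, 7 of 8 ends lay within 10 nt of the end of SNR18 (window 5.74% of the intron). In TEF4, 9 of 13 lay within 10 nt of the end of SNR38 (6.44%). In RPS22B, 20 of 70 lay within 10 nt of the end of SNR44 (4.35%), and the commonest position, with 6 reads, was the last base of the snoRNA itself.

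In the 3′ intron of RPL7B 4 of 15 inside ends lay within 10 nt of the end of SNR59 (5.16%), a share close to that of RPS22B on fewer reads. In the 3′ intron of RPL7A 3 of 25 lay within 10 nt of the end of SNR39 (4.49%). The hosts were not tested against each other. NOG2, outside the list, had 71 of 196 inside ends within 10 nt of the end of its H/ACA snoRNA SNR191, and 33 of them at its last base. Most ends inside the windows of ASC1, RPS22B, TEF4 and EFB1 came from the Nab2-AA libraries, which also held more reads. In ASC1 28 of 37 inside ends lay within the window in Nab2-AA, against 5 of 14 in Control-AA. In RPS22B these were 18 of 48 against 2 of 22, in TEF4 7 of 8 against 2 of 5, and in EFB1 4 of 4 against 3 of 4. Whether the strains differ in this share was not tested. Of the ASC1 reads ending in the window, 15 of 28 in Nab2-AA and 1 of 5 in Control-AA were chimeric, that is, they also covered the upstream gene SPC24.

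**Figure D1:**
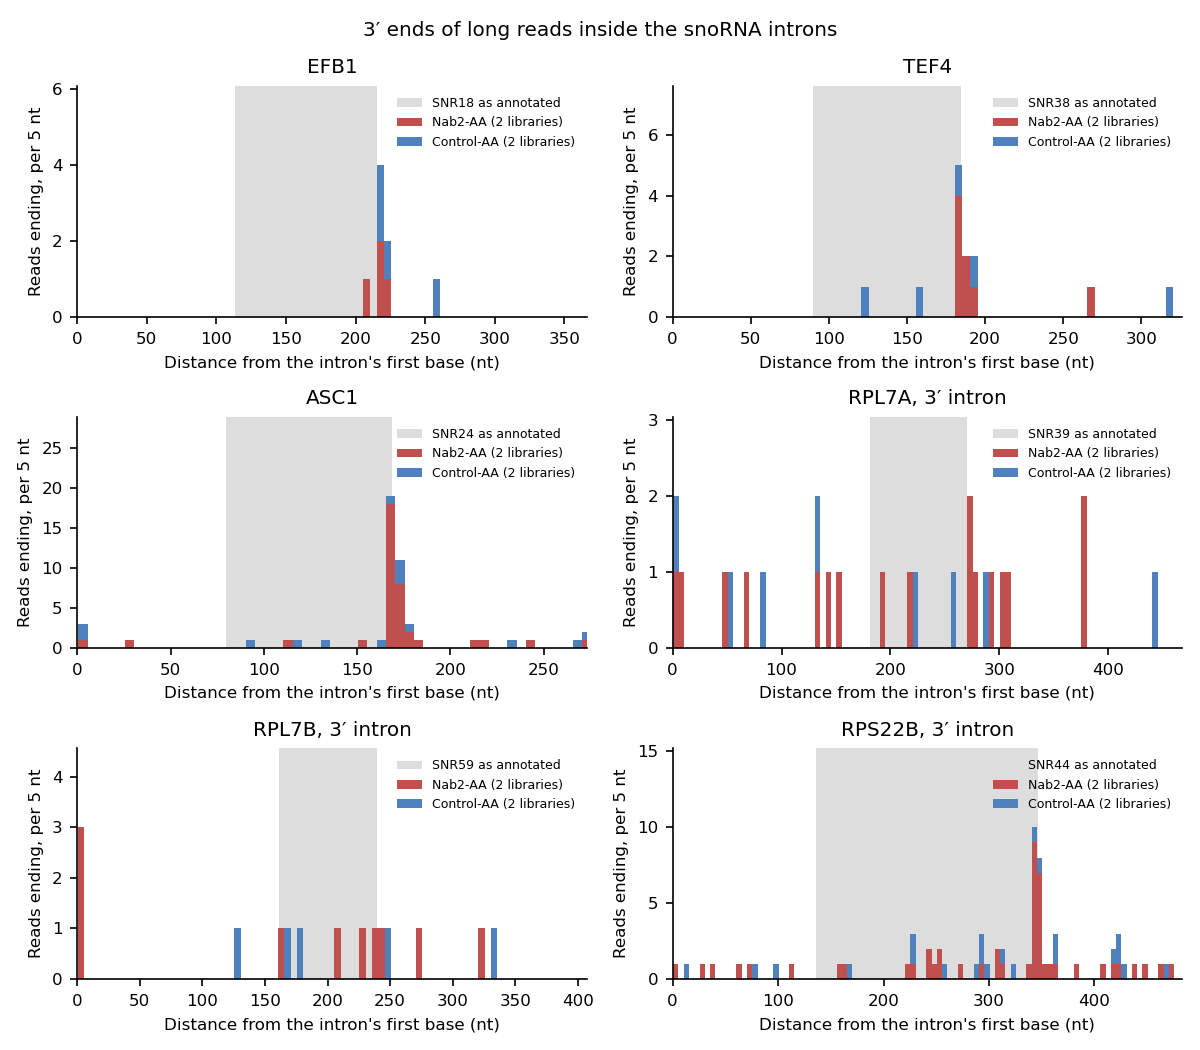
3′ ends of long reads inside 6 snoRNA introns, with reads ending per 5 nt on the y axis, distance from the intron's first base in nt on the x axis, and the annotated snoRNA shaded. Bars stack both Nab2-AA libraries and both Control-AA libraries. The tallest bars in ASC1, EFB1, TEF4 and RPS22B stand at the 3′ edge of the snoRNA, and no bar in RPL7A or RPL7B exceeds 3 reads.

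The share of entering reads that ended inside the intron was highest in RPS22B and NOG2, whose snoRNAs are of the H/ACA class. In the 3′ intron of RPS22B 38 of 129 and 10 of 39 entering reads ended inside in Nab2-AA, against 13 of 29 and 9 of 29 in Control-AA. In NOG2 these were 94 of 348 and 28 of 114, against 28 of 100 and 46 of 119. Over all libraries the share was 31% in RPS22B and 28.8% in NOG2, ranks 3 and 4 of 197 introns, and 13.8% in RPL7B, 4.64% in ASC1, 2.94% in RPL7A, 1.64% in TEF4 and 0.558% in EFB1. Among 99 introns without a snoRNA that were at least 250 nt long the median share was 1.15%, and 3 of them exceeded 20%. The snoRNA introns of the ribosomal protein hosts caught more ends than the 5′ introns of the same genes, where 1 of 847 entering reads ended inside in RPL7A, 1 of 116 in RPL7B and 13 of 234 in RPS22B. The 5′ introns lie nearer the start of the gene than the 3′ introns. Among reads that ended inside a snoRNA intron, the distance from read start to intron also differed between hosts. Whether the length of a molecule affected its recovery, and so these shares, was not tested. The shares describe molecules of 4 libraries and were not tested between introns.

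No intron passed the threshold for inside ends between Nab2-AA and Control-AA. The counts were low in some hosts, with 4 inside ends in each strain for EFB1, so the missing call says little there. The interaction of strain with read class in edgeR's quasi-likelihood test, adjusted over all 197 introns by the Benjamini-Hochberg method at 0.05, called 0 introns (0% of those tested, 4 at an unadjusted p under 0.05), and DESeq2 and limma also called 0. The ASC1 intron had 26 of 452 and 11 of 169 entering reads ending inside in Nab2-AA (5.75% and 6.51%), against 9 of 196 and 5 of 282 in Control-AA (4.59% and 1.77%). The Nab2-AA values were both higher, with a log2 odds ratio of 1.06 ± 0.577 (SE, edgeR adjusted p = 1). A log2 odds ratio here compares the odds of a read being in the class in Nab2-AA with those in Control-AA.

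No long read began inside a snoRNA intron. Of reads that reached past the 3′ end of one of these introns, 2088 and 764 were counted in Nab2-AA, against 807 and 1160 in Control-AA, and 0 had their 5′ end inside it. Over all introns 287 of 26505 and 124 of 9289 such reads started inside the intron in Nab2-AA, against 77 of 8477 and 111 of 12128 in Control-AA. A 3′ cleavage product that starts inside a snoRNA intron was thus not seen among these reads. The long-read libraries were treated with an exonuclease to deplete ribosomal RNA, per the labels, and the part of that step in the absence of such starts was not tested. The 0 starts therefore do not show whether such products were made. With no reads in the class, the planned test of starts says nothing about these genes.

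The hosts covered nearly the whole range of splicing levels. A long read that spanned an intron was called spliced if an alignment gap ran from intron start to intron end and unspliced when it covered the intron. The 3′ intron of RPL7A was spliced in 305 of 336 and 109 of 119 reads in Nab2-AA (90.8% and 91.6%), against 143 of 157 and 195 of 210 in Control-AA (91.1% and 92.9%). At the other end, the 3′ intron of RPS22B was spliced in 11 of 92 and 5 of 31 reads in Nab2-AA (12.0% and 16.1%), against 2 of 17 and 5 of 20 in Control-AA (11.8% and 25%). In Control-AA the order of mean shares was RPL7A, ASC1, TEF4, EFB1, RPL7B and RPS22B. The TEF4 and EFB1 libraries overlapped there, and the other neighbours did not, although the lowest ASC1 library (86.6%) and the highest TEF4 library (86.2%) had overlapping counting intervals. In Nab2-AA the order was RPL7A, ASC1, EFB1, TEF4, RPL7B and RPS22B, again with overlap between EFB1 and TEF4. IMD4 had only 7 spanning reads, of which 1 was spliced, and was not tested. It belongs to a family of closely related genes, and reads that fit several of them may be split or lost.

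The comparison of Nab2-AA with Control-AA asked whether removal of Nab2 from the nucleus altered splicing of these introns. The introns of TEF4, ASC1 and EFB1 were less often spliced in Nab2-AA. TEF4 was spliced in 217 of 327 and 71 of 106 reads in Nab2-AA (66.4% and 67.0%), against 111 of 138 and 175 of 203 in Control-AA (80.4% and 86.2%). Both Nab2-AA libraries lay below both Control-AA libraries, and the log2 odds ratio of being spliced was -1.38 ± 0.290 (SE, edgeR adjusted p = 0.000186). ASC1 was spliced in 328 of 427 and 118 of 158 reads in Nab2-AA (76.8% and 74.7%), against 165 of 187 and 240 of 277 in Control-AA (88.2% and 86.6%). These groups did not overlap either, and the log2 odds ratio was -1.11 ± 0.279 (edgeR adjusted p = 0.00343). EFB1 was spliced in 424 of 607 and 158 of 240 reads in Nab2-AA (69.8% and 65.8%), against 161 of 223 and 294 of 353 in Control-AA (72.2% and 83.3%). The Control-AA libraries differed more from each other than the nearest Nab2-AA and Control-AA libraries did, and the log2 odds ratio was -0.77 ± 0.222 (edgeR adjusted p = 0.0109).

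Of the 6 snoRNA introns tested, 3 were called lower and 0 higher. Over all 197 introns 15 were called lower (7.61%) and 0 higher. All 6 log2 odds ratios lay below 0, with a median of -0.94, and over all tested introns 146 of 197 lay below 0 with a median of -0.53. Of 83 introns in ribosomal protein genes without a snoRNA, 10 were called lower, with a median of -0.57. Of 16 introns in genes with 2 introns none was called, with a median of -0.47. Of the planned list of other translation genes 1 intron was measured, with a log2 odds ratio of 0.08 and no call. Whether snoRNA introns differ from other introns in this respect was not tested.

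The remaining hosts gave no call. RPL7B was spliced at its 3′ intron in 15 of 39 and 8 of 21 reads in Nab2-AA (38.5% and 38.1%), against 5 of 10 and 14 of 22 in Control-AA (50% and 63.6%). The groups did not overlap, but few reads stood behind them, and the log2 odds ratio of -1.20 ± 0.767 had an edgeR adjusted p of 0.330. The log2 odds ratio was -0.20 ± 0.410 in the 3′ intron of RPL7A and -0.65 ± 0.816 in that of RPS22B. NOG2 gave -0.06 ± 0.317, with 37.7% and 46.1% of reads spliced in Nab2-AA, against 35.5% and 46.2% in Control-AA.

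**Figure D2:**
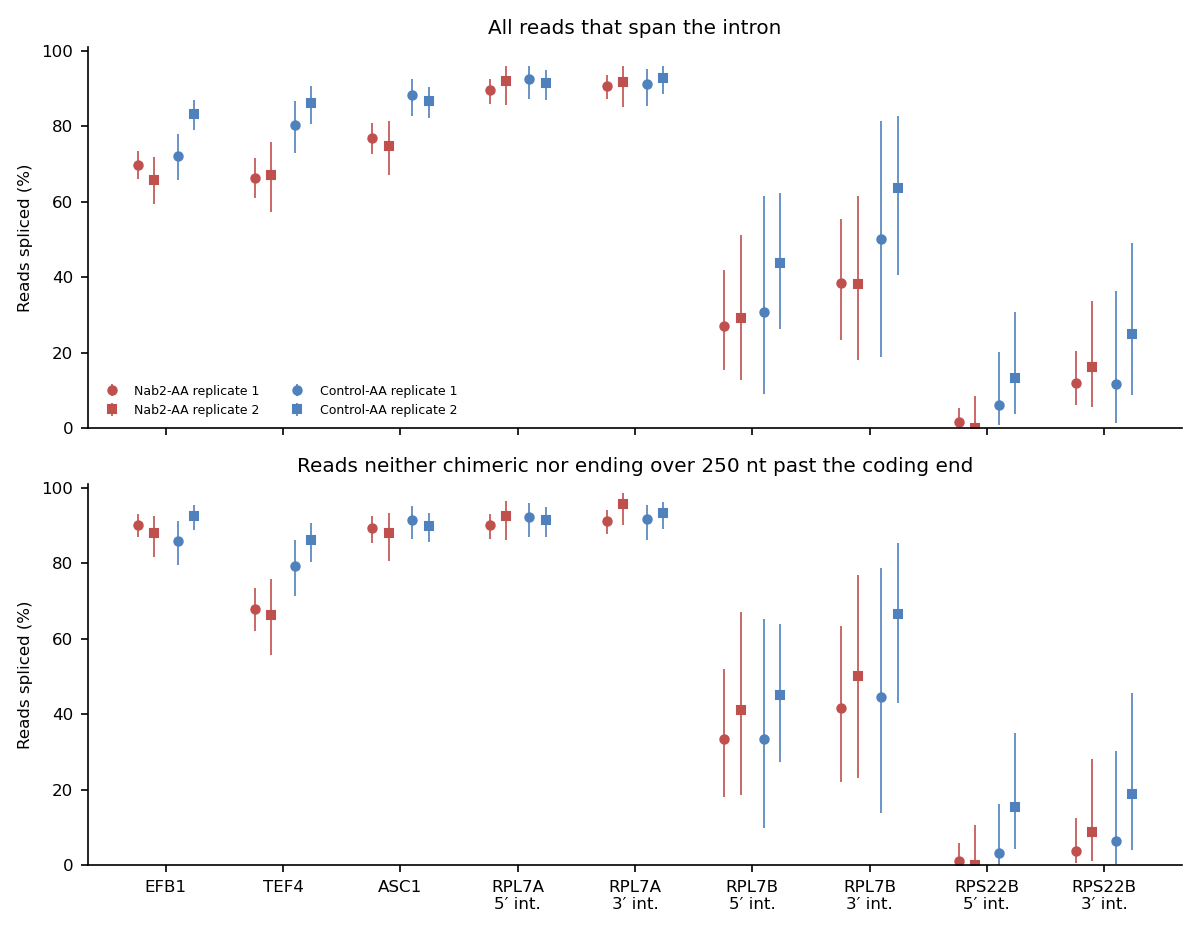
Percent of spanning long reads spliced (y axis) at each host intron (x axis), as points per library with exact 95% binomial intervals. The upper panel uses all reads, and the lower panel uses those neither chimeric nor ending over 250 nt past the coding end. In the lower panel the EFB1 libraries of both strains overlap, and TEF4 in Nab2-AA stays below Control-AA.

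These calls depended on the tool and on single libraries. DESeq2 gave adjusted p = 0.0879 for TEF4, 0.0995 for ASC1 and 0.510 for EFB1. Without the second Control-AA library the log2 odds ratio was -0.24 for EFB1 (edgeR adjusted p = 0.792), -1.05 for TEF4 (0.193) and -1.22 for ASC1 (0.133). Without the first Nab2-AA library all 3 had an adjusted p of 0.149. With the replicate number as a block 7 introns were called lower (3.55%), TEF4 and ASC1 among them and EFB1 not. ASC1 missed the threshold whichever library was left out (0.0694 to 0.149), EFB1 also without the second Nab2-AA library (0.230), and TEF4 passed without that library or the first Control-AA library.

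The difference in EFB1 and ASC1 was smaller among reads that ended near the gene. Among reads that ended beyond it, the spliced share in Nab2-AA was lower for EFB1 and higher for ASC1. The class of reads ending beyond the gene held those whose last base was over 250 nt downstream of the stop codon. Among reads neither chimeric nor ending beyond the gene, EFB1 was spliced in 90.2% and 87.9% in Nab2-AA, against 86.0% and 92.6% in Control-AA, so the groups overlapped. The log2 odds ratio in these reads was -0.10 ± 0.351 (edgeR adjusted p = 0.961). ASC1 was spliced in 89.3% and 87.9% in Nab2-AA, against 91.5% and 90% in Control-AA, with a log2 odds ratio of -0.27 ± 0.368 (edgeR adjusted p = 0.870). TEF4 kept its difference, with 67.9% and 66.3% spliced in Nab2-AA, against 79.4% and 86.1% in Control-AA, and a log2 odds ratio of -1.27 ± 0.306 (edgeR adjusted p = 0.00661). In this subset 2 of 164 introns were called lower (1.22%), TEF4 among them.

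Reads that ended beyond the gene were less often spliced than the others in EFB1 and ASC1. For EFB1 these were spliced in 63 of 207 and 20 of 83 in Nab2-AA (30.4% and 24.1%), against 32 of 73 and 45 of 84 in Control-AA (43.8% and 53.6%). For ASC1 they were spliced in 42 of 106 and 15 of 40 in Nab2-AA (39.6% and 37.5%), against 3 of 10 and 3 of 13 in Control-AA (30.0% and 23.1%). Within this class EFB1 differed by -21.4 percentage points (Nab2-AA minus Control-AA), and ASC1 by 12.0 in the other direction. The ASC1 class itself was larger in Nab2-AA. For TEF4 they were 29 of 50 and 10 of 14 in Nab2-AA (58.0% and 71.4%), against 11 of 12 and 8 of 9 in Control-AA (91.7% and 88.9%). Of all TEF4 reads ending beyond the gene, 12 of 50 and 4 of 15 in Nab2-AA, against 9 of 12 and 9 of 10 in Control-AA, held an alignment gap past the coding end, so the Control-AA values rest mostly on such reads. The 3′ intron of RPS22B went the other way, on few reads. With libraries pooled, 12 of 42 of its reads ending beyond the gene were spliced in Nab2-AA and 3 of 5 in Control-AA. Among its reads neither chimeric nor ending beyond the gene these were 4 of 78 and 4 of 32. Pooled over the 7 snoRNA introns, 71.0% and 69.4% of all spanning reads were spliced in Nab2-AA, against 80.0% and 85.1% in Control-AA. In reads neither chimeric nor ending beyond the gene these were 81.5% and 81%, against 84.7% and 89%, and in reads ending beyond it 36.2% and 31.6%, against 49.5% and 51.8%. For introns without a snoRNA they were 66.4% and 66.8% against 75.9% and 77.0% over all reads, 79.5% and 80.0% against 81.5% and 83.0% in reads ending near the gene, and 32.5% and 35.1% against 36.1% and 38.6% in reads ending beyond it. With 2 libraries per group an exact permutation test cannot go below p = 0.33, so these shares are descriptions.

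The hosts with 2 introns mostly had both in the same state. In RPL7A the 2 introns were removed together in 303 and 109 reads in Nab2-AA, against 142 and 193 in Control-AA, and both were kept in 25 and 5 reads, against 8 and 13. The 5′ intron alone, which lacks the snoRNA, was removed in 4 and 5 reads in Nab2-AA, against 5 and 2 in Control-AA, and the 3′ intron alone in 1 and 0, against 1 and 0. In RPL7B both were removed in 12 and 7 reads in Nab2-AA, against 4 and 13 in Control-AA, and both were kept in 23 and 13, against 5 and 7. The middle exon of RPL7A was skipped in 1 read of each Nab2-AA library and in 0 reads of Control-AA, and that of RPL7B in 0 reads of Nab2-AA and 1 read of the first Control-AA library.

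RPS22B also mostly had both introns in the same state, with both kept more often than both removed in each library. Its 5′ intron was spliced in 2 of 131 and 0 of 41 spanning reads in Nab2-AA (1.53% and 0%, where 0 of 41 allows up to 7.32%), against 2 of 33 and 4 of 30 in Control-AA (6.06% and 13.3%). The log2 odds ratio of -2.99 ± 1.14 had an edgeR adjusted p of 0.0767. Among reads that spanned both introns, the 3′ intron alone was removed in 10 and 5 reads in Nab2-AA, against 0 and 2 in Control-AA, and both were kept in 79 and 25, against 15 and 12. Most RPS22B reads that spanned both introns thus carried both in each library.

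Reads ending beyond the gene were more frequent in Nab2-AA for 4 of the 6 hosts tested. The background was high, since 62 of 189 genes (32.8%) were called higher and 1 lower. ASC1 had 106 of 463 and 40 of 176 reads ending over 250 nt past the coding end in Nab2-AA (22.9% and 22.7%), against 10 of 203 and 13 of 295 in Control-AA (4.93% and 4.41%). The libraries within each strain lay close together and the strains far apart, with a log2 odds ratio of 2.60 ± 0.307 (SE, edgeR adjusted p = 5.17e-14). Its adjusted p was 0.0645 without the second Control-AA library, at a log2 odds ratio of 2.51, and it passed when any other library was left out. Over all genes the count of calls fell to 0 without the second Control-AA library and to 8 without the first. RPL7B had 15 of 49 and 7 of 24 in Nab2-AA (30.6% and 29.2%), against 1 of 14 and 1 of 32 in Control-AA (7.14% and 3.12%), with a log2 odds ratio of 3.14 ± 0.947 (edgeR adjusted p = 0.00504, and 0.0476 to 0.210 with 1 library left out). RPS22B had 36 of 132 and 6 of 40 in Nab2-AA (27.3% and 15.0%), against 1 of 30 and 4 of 32 in Control-AA (3.33% and 12.5%). The nearest RPS22B libraries of the strains were close, and the log2 odds ratio was 1.83 ± 0.626 (edgeR adjusted p = 0.0144, 0.0747 with the replicate number as a block, and 0.0146 to 0.616 with 1 library left out). RPL7B and RPS22B passed without the second Nab2-AA library and missed the threshold without any of the other 3.

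TEF4 was called higher in Nab2-AA at 250 nt with and without a group of reads that held an alignment gap, but not at 100 or 500 nt with those reads kept. TEF4 had 50 of 335 and 15 of 110 reads ending beyond the gene in Nab2-AA (14.9% and 13.6%), against 12 of 141 and 10 of 209 in Control-AA (8.51% and 4.79%), a log2 odds ratio of 1.34 ± 0.351 (edgeR adjusted p = 0.00105). It also passed without the second Nab2-AA library only, with an adjusted p of 0.0690 to 0.199 without any of the others. Among the reads with a gap past the coding end the gap was over 1000 nt in 9 and 2 reads of the Nab2-AA libraries, against 8 and 9 reads of the Control-AA libraries, with lengths from 1725 to 1791 nt. The long gap spanned the next gene, VMA5, a subunit of the vacuolar ATPase that starts 574 nt downstream on the same strand, and alignment resumed past the end of that gene. Without reads that had any gap past the coding end, long or short, the shares were 11.8% and 10.4% in Nab2-AA, against 2.27% and 0.500% in Control-AA, and the log2 odds ratio was 3.34 (edgeR adjusted p = 2.56e-07; 35.4% of genes were called higher in that setting). At 500 nt past the coding end, with these reads kept, it was 0.23 (adjusted p = 0.762), and at 100 nt it was -0.24 (adjusted p = 0.551).

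EFB1 passed at a larger distance only. Its median read end lay 220 to 223 nt past the coding end in every library, close to the 250 nt limit, and 34.0% and 34.4% of reads ended beyond it in Nab2-AA, against 32.4% and 23.6% in Control-AA (log2 odds ratio 0.47 ± 0.205, edgeR adjusted p = 0.0631). At 500 nt 75 of 612 and 44 of 241 reads were beyond in Nab2-AA (12.3% and 18.3%), against 8 of 225 and 15 of 356 in Control-AA (3.56% and 4.21%). Both Nab2-AA shares were then higher than both Control-AA shares, with a log2 odds ratio of 1.98 ± 0.347 (edgeR adjusted p = 4.88e-07; 31.7% of genes were called higher at that distance). RPL7A had few reads beyond the gene, 7 of 350 and 6 of 125 in Nab2-AA, against 2 of 161 and 1 of 215 in Control-AA (log2 odds ratio 1.76 ± 0.787, edgeR adjusted p = 0.0803). All 6 log2 odds ratios lay above 0 with a median of 1.80, and over all genes 167 of 189 lay above 0 with a median of 1.4. In 83 ribosomal protein genes without a snoRNA 45 were called higher, with a median of 1.59. In NOG2 the log2 odds ratio was 3.17 ± 0.597 (edgeR adjusted p = 4.14e-06).

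**Figure D3:**
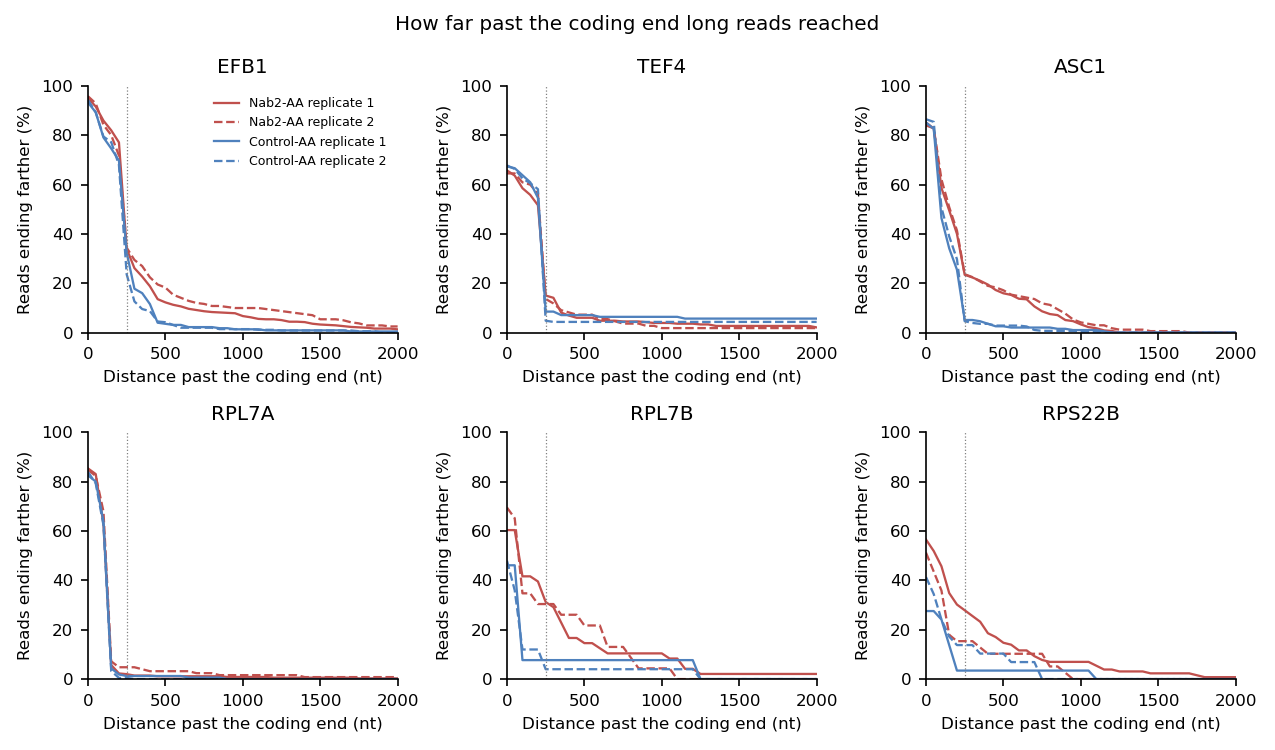
Percent of long reads ending farther than a given distance past the coding end (y axis) against that distance in nt (x axis), 1 line per library, for reads that entered the snoRNA intron from upstream. The dotted line marks 250 nt. The ASC1 lines of Nab2-AA lie above those of Control-AA at 250 and 500 nt, and the EFB1 lines part past the dotted line.

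Reads joining a host to its upstream neighbour were counted as chimeric when they covered both genes by at least 50 nt. They were found mainly in ASC1, with SPC24, a kinetochore gene 561 nt upstream on the same strand. There 23 of 463 and 15 of 176 reads were chimeric in Nab2-AA (4.97% and 8.52%), against 11 of 203 and 9 of 295 in Control-AA (5.42% and 3.05%). The groups overlapped, with a log2 odds ratio of 0.59 ± 0.520 (edgeR adjusted p = 1), and 2 of 189 genes were called higher (1.06%), none of them a host. RPS22B had 2 and 2 such reads with YLR365W in Nab2-AA, against 0 and 0 in Control-AA, and RPL7B had 1 read with CSM4 in Nab2-AA. EFB1, TEF4 and RPL7A had 0 in all libraries. Of these, EFB1 and TEF4 have an upstream neighbour on the opposite strand.

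SMIT files listed 2 of the hosts, EFB1 and IMD4. The deletion series asked whether loss of proteins that bind nascent RNA or chromatin alters splicing during transcription, and it counted 77736 to 299370 reads on EFB1 and 11916 to 74768 on IMD4 per library downstream of the 3′ splice site. Fractions are raw, without the authors' correction, and are means over 30 nt bins of polymerase position. EFB1 was almost fully spliced, with a fraction of 0.991 ± 0.00963 in htz1, 0.997 ± 0.00189 in pub1, 0.997 ± 0.00222 in tho2, 0.997 ± 0.00280 in rtt103, 0.992 ± 0.00814 in gbp2 and 0.992 ± 0.00582 in npl3 strains, against 0.984 ± 0.00392 in the wild type (SD, n = 2 each). IMD4 had 0.894 ± 0.0853 in htz1, 0.885 ± 0.0868 in pub1, 0.949 ± 0.0486 in tho2, 0.917 ± 0.0849 in rtt103, 0.909 ± 0.0473 in gbp2 and 0.913 ± 0.0923 in npl3 strains, against 0.921 ± 0.0107 in the wild type. The spread between the libraries of a deletion strain was larger than the distance of each strain's mean from the wild type for IMD4.

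No gene was called in any deletion strain (0 of 48 genes, 0%, in each of the 6 comparisons). Between 0 and 4 genes per strain had an unadjusted p under 0.05. Limma also called 0, and DESeq2 called 1 in rtt103, 1 in tho2 and 0 in the others. The log2 odds ratio of EFB1 lay above 0 in all 6 strains, from 1.43 ± 1.59 in npl3 to 3.33 ± 1.63 in pub1, with edgeR adjusted p from 0.500 to 1. All 6 share the same wild-type libraries. For IMD4 it lay between -0.67 ± 1.71 in htz1 and 0.86 ± 1.74 in tho2. In tho2 EFB1 passed with the replicate number as a block (log2 odds ratio 3.30 ± 0.811, edgeR adjusted p = 0.0379; 3 of 48 genes, 6.25%, were called higher). With the run as a block its log2 odds ratio was 1.72. That fit rests on the second wild-type library, the only one that shares a run with deletion strains.

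The run moved with both genes, in opposite directions. Replicate 1 of every deletion strain came from the run named MM in the labels and replicate 2 from the run named rep, which also held the second wild-type library. EFB1 lay at 0.996 to 0.999 in the 6 MM libraries and 0.984 to 0.996 in the 6 rep libraries of the deletion strains. IMD4 lay at 0.823 to 0.915 in the MM libraries and 0.942 to 0.984 in the rep libraries, with no overlap. Within the rep run EFB1 differed from the wild type by -0.00287 in htz1, -5.52e-05 in gbp2, 0.00106 in npl3, 0.00798 in rtt103, 0.00921 in tho2 and 0.00960 in pub1 strains. IMD4 was above the wild type in all 6 strains within that run, by 0.0133 in gbp2 to 0.0548 in tho2. Each strain has 1 library there, so no spread stands behind these differences. The first wild-type library came from a run of its own, and no wild-type library was in the MM run.

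**Figure D4:**
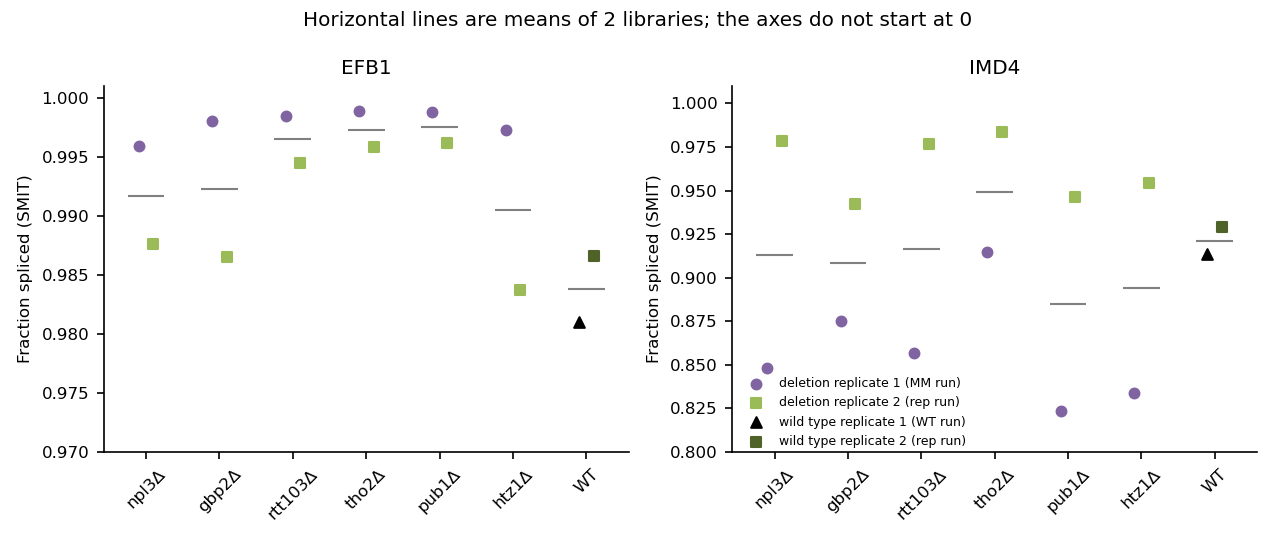
SMIT fraction spliced (y axis, not starting at 0) of EFB1 and IMD4 in the deletion strains and the wild type (x axis), 1 point per library with the run given by shape and the mean of 2 libraries as a line. In IMD4 every deletion library of the MM run lies below every one of the rep run, and in EFB1 the MM libraries lie highest within each strain.

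The host introns differed in how soon they were removed behind the polymerase. In the first 30 nt past the 3′ splice site EFB1 was already spliced in a fraction of 0.855 to 0.990 of reads over the 14 libraries (median 0.969), and IMD4 in 0.147 to 0.784 (median 0.437). At 31 to 60 nt the medians were 0.989 and 0.826, and at 271 to 300 nt 0.997 and 0.919. The first bin of IMD4 split by run in the deletion strains, with 0.147 to 0.390 in MM libraries and 0.484 to 0.784 in rep libraries. In the 6 anchor-away libraries the first bin gave 0.920 to 0.974 for EFB1 and 0.589 to 0.777 for IMD4. EFB1 ranked 4 of 48 genes by its median fraction in the deletion series and 12 of 57 in the anchor-away series, and IMD4 ranked 13 and 19. SMIT and long reads gave different levels for the same EFB1 intron at 10 min of rapamycin, 0.988 by SMIT and 67.8% ± 2.84 by long reads in Nab2-AA, against 0.994 by SMIT and 77.7% ± 7.84 by long reads in Control-AA (SD, n = 2 for long reads). Among reads neither chimeric nor ending beyond the gene the long-read values were 89.1% ± 1.66 and 89.3% ± 4.64. The SMIT values are raw fractions, and the authors' corrected fractions were lower, at 0.948 in Nab2-AA and 0.952 in Control-AA.

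In the anchor-away time course, with 1 library per strain and time and so no test, EFB1 in Nab2-AA had fractions of 0.995, 0.988 and 0.986 at 0, 10 and 30 min. In Control-AA these were 0.992, 0.994 and 0.991. IMD4 had 0.955, 0.928 and 0.948 in Nab2-AA, against 0.974, 0.957 and 0.954 in Control-AA. The change of EFB1 from 0 min in Nab2-AA minus that in Control-AA was -0.00943 at 10 min and -0.00910 at 30 min, and that of IMD4 was -0.00981 and 0.0131. Over 57 genes the medians of this difference were -0.0185 at 10 min and -0.00813 at 30 min, and EFB1 ranked 34 and 27 from the lowest.

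Near the 3′ splice site the change in EFB1 was larger. In the first 30 nt its fraction was 0.974, 0.920 and 0.928 at 0, 10 and 30 min in Nab2-AA, against 0.962, 0.960 and 0.952 in Control-AA, with exact 95% intervals of 0.969 to 0.979, 0.911 to 0.928 and 0.921 to 0.936 in Nab2-AA. At 301 to 330 nt all 6 values lay between 0.996 and 0.9997. IMD4 went the other way in its first 30 nt, with 0.589, 0.623 and 0.682 at 0, 10 and 30 min in Nab2-AA, against 0.777, 0.720 and 0.698 in Control-AA. At 91 to 120 nt, a bin chosen after its values were seen, IMD4 had 0.946, 0.823 and 0.908 in Nab2-AA, against 0.953, 0.921 and 0.915 in Control-AA. In EFB1 a bin at 631 to 660 nt, with 247 to 428 reads per library, was low in several libraries of both strains, and without it the differences of change were -0.00515 and -0.00549.

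**Figure D5:**
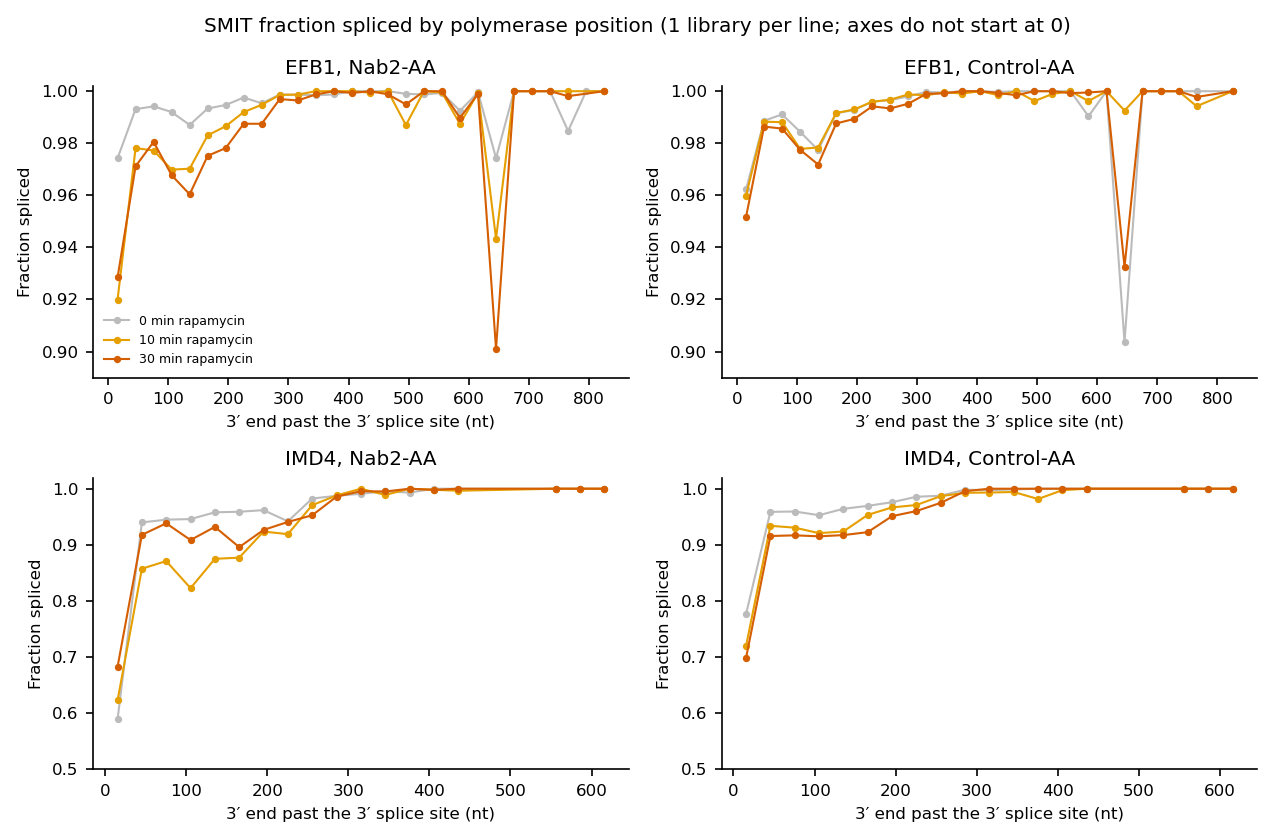
SMIT fraction spliced (y axis, not starting at 0) against the position of the 3′ end past the 3′ splice site in nt (x axis), in 30 nt bins, for EFB1 and IMD4, with a panel for each gene and strain and a colour for each time of rapamycin (0, 10 and 30 min). Each line is 1 library. EFB1 in Nab2-AA starts at 0.920 and 0.928 at 10 and 30 min, against 0.974 at 0 min.

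Genes with the most similar pattern were sought by the root mean square difference in fraction spliced. For EFB1 these were GLC7 (0.00761) and DBP2 (0.00896) over the 14 libraries of the deletion series, and RPS9B (0.00294) and RPS13 (0.00500) over the 6 anchor-away libraries. For IMD4 they were ECM33 (0.0309) and NMD2 (0.0493), and ECM33 (0.00975) and RPP1B (0.0187). In long reads the measure was the difference in percent spliced over 4 libraries among 86 other introns with at least 20 spanning reads in each library. The 3′ intron of RPL7A was closest to the 5′ intron of the same gene (1.13 percentage points) and to RPL16B (1.96). TEF4 was closest to RPL25 (2.99) and RPS18A (4.21), ASC1 to RPS11A (3.00) and RPS11B (3.14), and EFB1 to RPL43A (4.17) and TUB1 (4.38).

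The authors' deposited table of long-read fractions gave values close to those counted here for TEF4, EFB1 and ASC1. The hosts with 2 introns have 1 value per gene there. RPL7B had 0.288 and 0.296 in Nab2-AA, against 0.294 and 0.457 in Control-AA, so the strains overlapped, unlike in the counts of its 3′ intron. RPL7A had 0.873 and 0.884, against 0.867 and 0.913, and RPS22B had 0.137 and 0.172, against 0.167 and 0.238. For IMD4, with few reads, the authors' deposited table had 0.143 and 0 in Nab2-AA, against 0.33 in the first Control-AA library, where 1 of 4, 0 of 1 and 0 of 2 reads were counted as spliced here. In the authors' deposited table TEF4 had 0.662 and 0.667 in Nab2-AA, against 0.816 and 0.853 in Control-AA. In the authors' deposited table EFB1 had 0.702 and 0.658, against 0.717 and 0.836. In the authors' deposited table ASC1 had 0.725 and 0.696, against 0.855 and 0.846, which lay nearer to the shares obtained here when reads ending inside the intron were counted as unspliced (72.6% and 69.8%, against 85.1% and 85.1%). The authors' deposited tables of SMIT differences, whose scale is not stated, gave EFB1 a score above 0 in every deletion strain and replicate, with the identical score of 0.431 for replicate 1 in the PUB1, RTT103 and THO2 deletions.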

How the data were processed

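SMIT files list, per the file headers, the number of reads at each 3′ end position of a gene, so the authors deposited read counts, and beside them the fraction spliced and a corrected fraction whose correction is not given in the sources used here. Raw fraction times count was whole at every position (tolerance 0.01 reads), which gave spliced and unspliced reads. The authors also deposited a table of long-read fraction spliced per gene and difference scores between conditions, of unstated scale. Long reads came as alignments whose score column, as deposited, holds the mapping quality, which was not used. Per the submitters' processing notes the tools include HISAT2 2.1.0, minimap2 2.17, cutadapt 1.9.1, SAMtools 1.9 and bedtools 2.29.2, and the build is sacCer3. Whether PCR duplicates were collapsed is not stated.

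Introns were alignment gaps of 40 to 1100 nt found in at least 5 reads and 5% of spanning reads. Members were exempt from the 5%, and the IMD4 intron, which holds a snoRNA, was kept with 1 gap read. A gap within 10 nt of both intron ends was spliced, and 90% cover unspliced. SMIT bins of 30 nt needed 10 reads, and 48 and 57 genes were used in the deletion and anchor-away series. Long-read features needed 20 reads over the 4 libraries. The members and lists were chosen with earlier results of these data known. All 7 members were described. The 2 closest patterns were given for EFB1 and IMD4 in SMIT and for EFB1, TEF4, ASC1 and RPL7A in long reads, and RPL7B and RPS22B had too few reads for it. Tests were edgeR 4.0.16 quasi-likelihood fits (R 4.3.3) with a term per library and the interaction of read class with group, adjusted by Benjamini-Hochberg over all features at 0.05, and checked on simulated data. DESeq2 1.42.0 and limma 3.58.1 were alternatives, with other filters, distances, blocks and left-out libraries. Replicate numbers were not taken as pairing, since only 2 pairs exist per comparison. Deviations of same-numbered libraries correlated at -0.106 in long reads and 0.129 to 0.216 in SMIT. No genome was used, and no sequence is printed.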

Additional observations from a re-analysis of the deposited data

Results flagged for a closer look

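The SMIT fraction of EFB1 at 10 min moved in opposite directions in the strains, by -0.006813 in Nab2-AA and by 0.002619 in Control-AA, a difference of -0.009432. With 1 library per strain and time this difference was not tested. Without the bin at 631 to 660 nt both strains fell, and the difference was -0.00515.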

How the results depend on the processing

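Of 541 values of 64 results under alternative settings, 425 kept their direction and side of the threshold or moved by less than the spread, and 28 changed sign. For splicing 2 introns were called by DESeq2, 0 by limma, 7 with a replicate block, 2 in reads neither chimeric nor ending beyond 250 nt, and 0 with crossed replicate numbers (a pairing added after seeing the data, since same-numbered long-read libraries correlated below -0.1), and 2 to 10 with 1 library left out. The log2 odds ratio of EFB1 splicing was -0.766 with DESeq2, -0.763 with limma, -0.730 with the replicate block (adjusted p = 0.222), -0.0957 in the read subset, -0.823 with the crossed block and -1.18 to -0.24 with 1 library left out. TEF4 gave -1.36, -1.33 and -1.41 with DESeq2, limma and the crossed block, and -1.65 to -1.05 with 1 library left out. ASC1 gave -1.13, -1.14 and -1.105, -0.268 in the read subset, and -1.223 to -1.015 with 1 library left out. For reads ending beyond the gene 28 genes were called by DESeq2, 28 at 100 nt and 0 to 55 with 1 library left out. TEF4 gave 1.31 with DESeq2, -0.241 at 100 nt, 0.229 at 500 nt and 0.876 to 1.76 with 1 library left out. RPS22B gave 1.70 with DESeq2, 1.69 with the replicate block, 1.12 at 500 nt and 0.967 to 3.14. RPL7B gave 3.195 with DESeq2, 2.03 at 500 nt and 2.41 to 3.63. ASC1 gave 2.51 to 2.67 with 1 library left out. Chimeric calls were 0 by DESeq2 and 0 to 2 with 1 library left out.

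Inside ends of the RPL7B 3′ intron gave -0.162 with DESeq2, -0.538 with limma and -0.356 with the replicate block. With 1 library left out inside ends gave -0.798 to 0.0833 in EFB1, -3.11 to 0.509 in the RPL7A 5′ intron, -0.222 to 0.905 in TEF4, -0.173 to 2.83 in the RPL7B 5′ intron and -1.65 to 0.593 in its 3′ intron, and splicing of the RPS22B 3′ intron gave -1.15 to 0.145. SMIT called 1 gene in gbp2 with the run block, 1 in rtt103 with DESeq2, 1, 3, 2 and 1 in tho2 with DESeq2, the replicate block, the run block and the wild type and strain alone, and 2 in pub1 with the wild type and strain alone. With the run block EFB1 gave -0.158 in npl3 and -0.0500 in htz1, and IMD4 gave 0.404 in gbp2, 0.942 in rtt103 (0.000644 with DESeq2, 0.000968 with limma), 0.311 in pub1 and 0.273 in htz1. With 1 library left out IMD4 gave -1.47 to 1.99 in npl3, -1.45 to 0.367 in gbp2, -1.76 to 1.76 in rtt103, -0.608 to 2.33 in tho2, -1.88 to 0.613 in pub1 and -1.95 to 0.614 in htz1, and EFB1 gave -0.0482 to 3.14 in htz1. The anchor-away difference of EFB1 at 10 min was -0.0120 over pooled reads, -0.00454 in 60 nt bins, -0.0144 with the corrected fraction and -0.00515 without the 631 nt bin. At 30 min it was -0.0125, -0.00519, -0.0350 and -0.00549. That of IMD4 at 10 min was -0.0439 pooled, -0.0180 with 50 reads per bin and 0.0266 corrected, and 0.0339 corrected at 30 min. The cause was not tested for any of these. Few reads limit RPL7B, RPS22B and above all IMD4 in long reads.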

Other observations

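In the authors' corrected fractions EFB1 lay 0.0432 to 0.0659 above the wild type in the 6 deletion strains, larger differences than in the raw fractions. The mean of IMD4 lay 0.0296 (pub1) to 0.137 (tho2) above the wild type in these 6 strains. Its raw differences ran from -0.0365 (pub1) to 0.0279 (tho2), so the direction depended on the correction. Replicate 1 of IMD4 stayed below the first wild-type library in npl3 (-0.0331), pub1 (-0.0325) and htz1 (-0.0246) after correction.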
